A study of Mus musculus with 48 samples.

Results

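The comparison described here is that of Ttad with Tterm CD8 T cells carrying a guide against Zfp219 in tumours of aged mice. Its members are the 2 Ttad and 2 Tterm libraries whose titles carry the aged host letter, the Zfp219 guide and the state, 4 of the 48 libraries of the series, measured at all 53868 peaks. All cells were OT-1 CD8+ T cells that express Cas9 and the CD45.1 allele. They bear a transgenic receptor for an ovalbumin peptide, and received 1 guide from a lentiviral vector with an ametrine reporter. They were transferred to mice 1 day before B16-OVA inoculation, a melanoma line that makes ovalbumin, and sorted from tumours 15 days after it. Ttad cells, labelled age-associated dysfunctional, were negative for both Slamf6 and Tim-3, and Tterm cells, labelled terminally exhausted, were Tim-3 positive and Slamf6 negative. The other states are Tprog (Slamf6 positive only) and Ttran (positive for both), and the other guides are Dusp5 and a control named OTC. The labels call the Zfp219 cells a knockout. Editing itself was not measured, and reads at Zfp219, a zinc-finger gene, do not report a small edit: neither of its 2 peaks was called, with log2 fold changes of 0.14 and 0.08 between the states. Each library is a pool of cells from independent mice, and whether Ttad and Tterm came from the same mice is not given, so p-values measure the spread between pools, estimated over all groups of the fit, and not between mice.

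ATAC-seq marks open chromatin, where the Tn5 enzyme can insert adapters, such as promoters and distal enhancers. In chronic stimulation, progenitor exhausted cells keep TCF-1, the product of Tcf7, and can renew and migrate, while terminally exhausted cells lose it, gain inhibitory receptors such as Tim-3, the product of Havcr2, and keep effector genes such as granzymes and chemokines open. A cell negative for both sorting markers is defined by absence, so the loci that separate it from terminal cells describe it.

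Reads in peaks were 15249285 to 16159054 in these 4 libraries, against 5638413 to 14780826 in the 8 Ttad and Tterm libraries of the other 2 aged guides. Across peaks, Pearson's r of log2(normalized reads + 1) was 0.972 between the Ttad libraries, 0.974 between the Tterm libraries and 0.964 between states; peaks are not independent replicates. The chi-square of reads per degree of freedom was 2.91 and 2.79 within the states and 4.94 to 5.03 between them, so no 2 libraries agreed within counting noise. Of 12 T cell identity genes 11 had peaks. Of the marker genes of other cells, 3 of 7 for B cells, 6 of 9 for myeloid cells, 5 of 5 for dendritic cells, 4 of 4 for NK cells, 2 of 3 for CD4 and regulatory T cells, 4 of 7 for melanoma and 6 of 7 for stroma and endothelium had a peak. No peak was assigned to Cd79a, Cd79b or Ms4a1 of B cells, Csf1r, Adgre1 or Lyz2 of myeloid cells, Foxp3, or Tyr, Tyrp1 or Dct of melanoma, while Cd3g and the effector regulator Zfp683 also had none.

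Ttad cells were more open than Tterm cells at peaks of Tcf7, Id3, Ccr7 and Ccr6, and less open at peaks of Havcr2, Entpd1, Ifng, the Ccl3 locus, Gzmb and Gzmn. Other members of the same gene lists went the other way. Peaks near the progenitor gene Myb were less open in Ttad, and 1 peak each at Cx3cr1, Tox and Tnfrsf9 was more open. Of 53868 peaks, 942 were called, 341 higher and 601 lower in Ttad, by limma on log2(normalized reads + 1) with all 48 libraries in the fit and a Benjamini-Hochberg adjusted p under 0.05. That is 1.75% of peaks, 0.633% higher and 1.12% lower. The median size of the called differences was 0.76 on the log2 scale, and 292 were at least 1. The 4 libraries did not overlap between states at any of the 942 peaks, nor at 47.8% of all peaks. The count depended on the test: 1422 by edgeR on the recovered reads, 1664 by DESeq2, 2791 by limma on these 4 libraries alone, 557 after all libraries were thinned to 1 total, and 289, 320, 247 and 305 without Ttad 1, Ttad 2, Tterm 1 and Tterm 2 in turn. The sign of all 942 held in each of these fits, which reuse the libraries that chose the peaks. Since the libraries do not overlap there, leaving 1 out could not change a sign, so this adds no evidence.

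**Figure D1:**
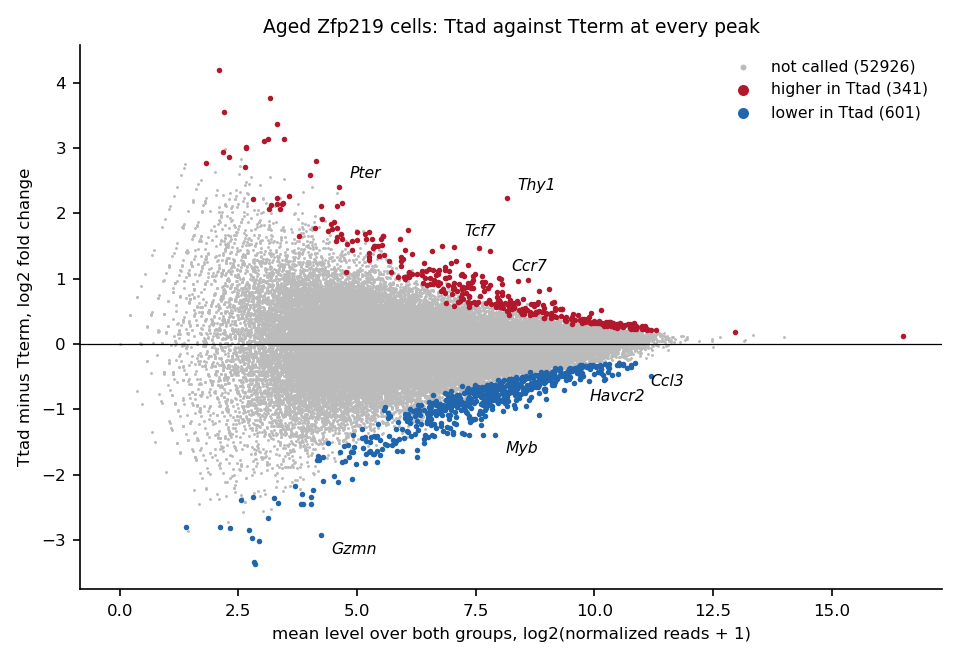
Each point is 1 of 53868 peaks, with its mean level in the 4 aged Zfp219 libraries on the x axis (log2 of normalized reads + 1) and Ttad minus Tterm as a log2 fold change on the y axis. Red points are the 341 peaks called higher and blue points the 601 called lower; the smallest called changes lie at the strongest peaks, where the test resolves them.

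The promoters of 5 genes at called peaks are printed as examples chosen by hand: Tcf7 and Il2, higher in Ttad, and Havcr2, Gzmb and Ccl3, lower in Ttad. Each is the strand of the gene from 250 bases before to 50 after a RefSeq start site (GRCm38.p6) and lies wholly inside its peak. Capitals mark exact matches, on either strand, to short motif strings that were searched in every promoter.
Tcf7, chr11:52282546-52282845, minus strand: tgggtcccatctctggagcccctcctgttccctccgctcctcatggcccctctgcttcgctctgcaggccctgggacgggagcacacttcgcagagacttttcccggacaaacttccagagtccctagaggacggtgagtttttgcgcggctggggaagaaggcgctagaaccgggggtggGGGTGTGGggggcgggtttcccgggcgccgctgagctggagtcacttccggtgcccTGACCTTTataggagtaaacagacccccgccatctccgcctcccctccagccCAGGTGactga
Il2, chr3:37125905-37126204, minus strand: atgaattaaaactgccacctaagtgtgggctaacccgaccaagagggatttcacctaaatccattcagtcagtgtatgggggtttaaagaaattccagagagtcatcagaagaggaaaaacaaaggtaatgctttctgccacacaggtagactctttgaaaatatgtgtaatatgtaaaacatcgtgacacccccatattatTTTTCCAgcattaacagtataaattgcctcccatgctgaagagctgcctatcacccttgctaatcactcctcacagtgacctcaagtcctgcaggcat
Havcr2, chr11:46454681-46454980, plus strand: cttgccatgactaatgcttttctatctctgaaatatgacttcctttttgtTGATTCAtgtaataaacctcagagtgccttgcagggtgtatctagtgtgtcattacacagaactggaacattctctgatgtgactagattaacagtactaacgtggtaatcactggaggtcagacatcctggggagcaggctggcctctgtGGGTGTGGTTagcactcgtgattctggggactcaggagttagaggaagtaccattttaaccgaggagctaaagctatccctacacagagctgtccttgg
Gzmb, chr14:56262285-56262584, minus strand: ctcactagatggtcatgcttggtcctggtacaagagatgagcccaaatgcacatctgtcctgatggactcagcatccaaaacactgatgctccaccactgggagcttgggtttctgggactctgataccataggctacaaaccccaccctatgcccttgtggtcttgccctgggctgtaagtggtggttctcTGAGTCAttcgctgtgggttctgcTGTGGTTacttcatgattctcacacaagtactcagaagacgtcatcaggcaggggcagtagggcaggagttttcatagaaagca
Ccl3, chr11:83649329-83649628, minus strand: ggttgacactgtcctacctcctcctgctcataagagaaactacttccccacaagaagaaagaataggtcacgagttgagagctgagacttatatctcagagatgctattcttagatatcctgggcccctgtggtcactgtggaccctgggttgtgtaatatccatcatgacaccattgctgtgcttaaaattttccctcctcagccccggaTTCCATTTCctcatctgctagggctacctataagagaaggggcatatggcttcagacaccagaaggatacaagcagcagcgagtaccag
The Havcr2 promoter holds the AP-1 string TGANTCA 200 bases before its start site and overlapping KLF (GGGTGTGG) and RUNX (TGTGGTT) strings at 49 and 46 bases before it. The Gzmb promoter holds the same AP-1 string 58 bases before the start site and the RUNX string 34 bases before it. In the Ccl3 promoter the match is an IRF string (GAAANNGAA, reverse strand) 39 bases before the start site. The printed Tcf7 promoter holds a KLF string 69 bases and an NR4A string (AAAGGTCA, reverse strand) 13 bases before the start site, with an E-box string (CAGGTG) 39 bases after it. Another Tcf7 promoter window in the same peak, not printed, holds the E-box string CAGCTG 159 bases before its start site. The capitals in the Il2 promoter are an NFAT string (TGGAAAA, reverse strand) 48 bases before the start site, and NFAT is the factor that calcium signalling drives to this gene.

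Across promoters the AP-1 string was more frequent where accessibility was lower in Ttad. Of 32851 RefSeq promoter windows, 11975 lay wholly inside a peak, in 9053 peaks, of which 67 were called higher and 17 lower. The AP-1 string was found in 7 of the 17 lower peaks (41.2%), in 1 of the 67 higher peaks (1.49%) and in 5.73% of the 9053. The windows with it were those of Havcr2, Gzmb, Adgrg1, Morrbid, 1700012B09Rik, Gm33475 and Gm35218. Adgrg1 encodes an adhesion receptor of cytotoxic lymphocytes and Morrbid a long noncoding RNA that restrains Bcl2l11. The RUNX string was found in 5 of the 17 lower peaks (29.4%), 6 of the 67 higher (8.96%) and 4.73% of the 9053. The CAGCTG E-box string was in 25.4% of the higher and 11.8% of the lower peaks, against 16.3% of the 9053. The other E-box string, CAGGTG, went the other way, with 19.4%, 23.5% and 20.2%. In the same order, the TCF/LEF string ATCAAAG was in 4.48% (3 of the 67), 0.0% and 2.62%. The CTCF string CAGGGGGCG was in 7.46% (5 of the 67), 0.0% and 4%. Shares of the remaining strings are not given here. These shares describe letters in promoter windows of few peaks, and most called peaks are distal and were not searched. Over all 32851 promoters the AP-1 string was in 7.81% and the RUNX string in 5.27%.

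At the 2 genes used for sorting, 1 peak each was called. The Havcr2 start-site peak (chr11:46452770-46455391) had 928 and 929 normalized reads in Ttad and 1228 and 1275 in Tterm. This was a log2 fold of -0.43 (± 0.08 SE, adjusted p = 0.00068) at a locus still well open in Tim-3 negative cells. The Slamf6 peak inside the gene (chr1:171920836-171921932) had 216 and 167 normalized reads in Ttad and 104 and 133 in Tterm, a log2 fold of 0.69 (± 0.18 SE, adjusted p = 0.0257), although neither state carries Slamf6 at its surface by the gate. The other 5 Slamf6 peaks and the other 4 Havcr2 peaks were not called. Tim-3 separates the 2 states by the gate, so the direction at Havcr2 is part of their definition. Both states are Slamf6 negative by the gate, which sets no direction between them at Slamf6.

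Among regulators of progenitor and memory cells, Tcf7, Id3 and Foxp1 rose in Ttad and Myb-near peaks fell. Of 196 peaks at 12 such genes, 184 were not called and 10 rose, all at Tcf7, Id3 and Foxp1, and 2 fell, both near Myb. That is 6.12% called, against 1.75% of all peaks. The median log2 fold change of the list was 0.09, against 0.01 over all peaks. Tcf7 encodes TCF-1, the factor that maintains progenitor exhausted cells, and 5 of its 12 peaks rose. Its peak at chr11:52273512-52275959, inside the gene, had 226 and 214 normalized reads in Ttad and 86.2 and 70.0 in Tterm (log2 fold 1.49 ± 0.20 SE, adjusted p = 2.32e-07). A neighbour at chr11:52268178-52268844 had 103 and 106 against 33.6 and 33.4 (1.61, SE 0.31, adjusted p = 0.000684), and the start-site peak that holds the promoter printed above had 245 and 305 against 163 and 123 (0.95, SE 0.19, adjusted p = 0.00112). In each the lower Ttad library stood above the higher Tterm library. The remaining 2 called Tcf7 peaks rose by 0.55 and 0.62 on the log2 scale.

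Id3 encodes an inhibitor of E proteins that marks progenitor and memory cells, and 4 of its 7 peaks rose. The start-site peak (chr4:136143607-136144833) had 304 and 247 normalized reads in Ttad and 122 and 178 in Tterm (log2 fold 0.89 ± 0.18 SE, adjusted p = 0.00176), and 3 upstream peaks rose by 0.76 to 1.03. Foxp1, a forkhead factor of quiescent T cells, rose at 1 peak inside the gene, from 63.8 and 52.9 in Tterm to 126 and 128 in Ttad. Myb encodes a factor that sustains stem-like exhausted cells, and both called peaks near it fell. At chr10:21115176-21116075, 8855 bp from the gene, the Ttad libraries had 152 and 142 normalized reads and the Tterm libraries 359 and 414 (log2 fold -1.39 ± 0.19 SE, adjusted p = 1.09e-06). The Myb-near peaks therefore ran opposite to the Tcf7 and Id3 peaks of the same list. At Lef1, Bach2, Satb1, Bcl6, Foxo1, Klf2, Ikzf1 and Zeb1 no peak was called.

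Homing and memory surface genes had 7 called peaks of 75 (9.33%, against 1.75% of all peaks), all higher in Ttad, with a list median of 0.16. Ccr7, the chemokine receptor for entry to lymph nodes, rose at 4 of 11 peaks. At chr11:99162807-99163597, 7730 bp from the gene, the Ttad libraries had 389 and 344 normalized reads and the Tterm libraries 173 and 194 (log2 fold 0.99 ± 0.16 SE, adjusted p = 2.3e-05). Cxcr5, which guides cells to follicles and marks progenitor exhausted cells, rose at 2 peaks, the stronger from 476 and 476 in Tterm to 732 and 674 in Ttad. S1pr1, the receptor for egress to the circulation, rose at 1, with 178 and 286 in Ttad and 128 and 115 in Tterm. Il7r, Cd28, Cxcr3, Itgb7 and Itga4 had no called peak. Tissue residency and migration genes added 3 higher and 0 lower of 75 (4% called): 1 peak each at Cxcr4, Itgb1 and Ccr8. Among these the Itgb1 peak changed most (log2 fold 1.57 ± 0.39 SE, adjusted p = 0.0153).

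**Figure D2:**
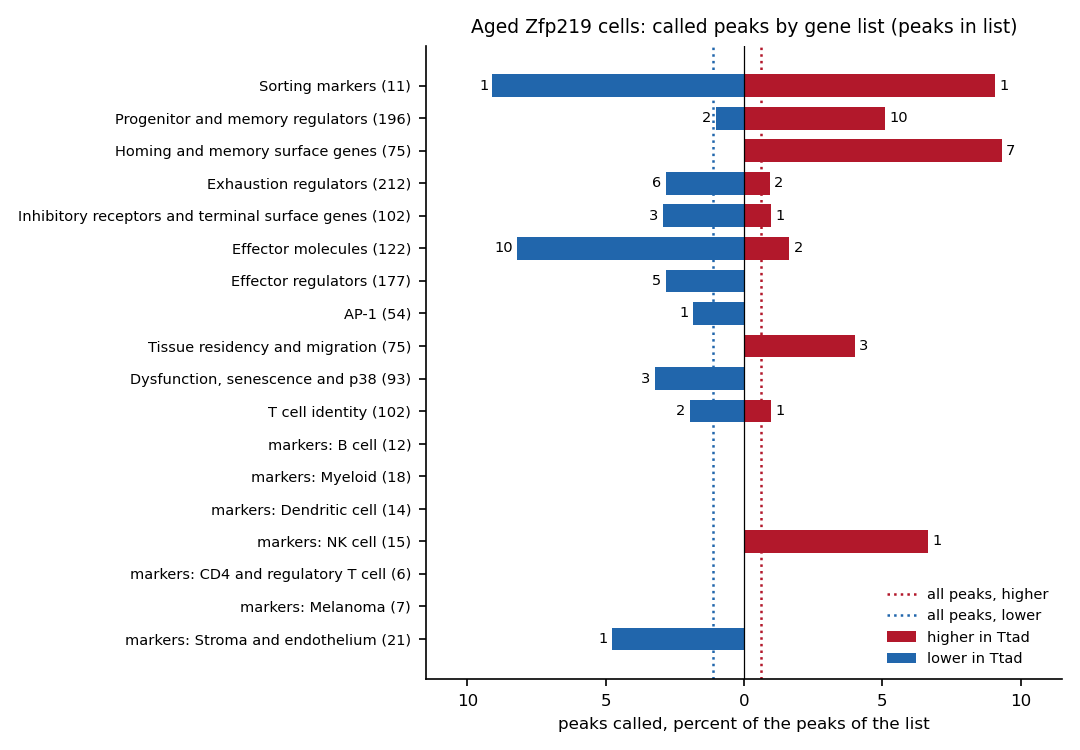
Bars give the percent of each list's peaks called higher (red, right) or lower (blue, left) in aged Zfp219 Ttad against Tterm, with the number of called peaks at the bar's end and the number of peaks in the list in parentheses. Dotted lines are the shares over all peaks, 0.633% higher and 1.12% lower; homing genes had 7 higher and 0 lower calls and effector molecules 2 higher and 10 lower.

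Among genes of effector molecules, Ccl3, Ifng, Ccl5 and Gzmb had peaks that fell in Ttad. Of 122 peaks at 15 genes, 10 fell, 2 rose and 110 were not called, and the list median was -0.25. That is 9.84% called, against 1.75% of all peaks. Ccl3, a chemokine that activated CD8 T cells secrete to draw other immune cells, fell at all 4 of its peaks. The most distal (chr11:83628444-83630271) had 1093 and 1069 normalized reads in Ttad and 1448 and 1451 in Tterm (log2 fold -0.42 ± 0.08 SE, adjusted p = 0.00079), and the start-site peak whose promoter is printed above had 662 and 694 against 876 and 870 (-0.37, SE 0.10, adjusted p = 0.0437). Ifng, the main cytokine of these cells, fell at 3 distal peaks. At chr10:118482165-118482957, 36271 bp from the gene, the libraries had 154 and 109 in Ttad and 271 and 306 in Tterm (-1.14, SE 0.23, adjusted p = 0.00155). Ccl5, another chemokine, fell at 2 peaks near the gene, by 0.76 and 0.40 on the log2 scale.

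The Gzmb start-site peak, at the gene of the granzyme that kills target cells, had 782 and 819 normalized reads in Ttad and 1000 and 1023 in Tterm (log2 fold -0.34 ± 0.10 SE, adjusted p = 0.0418). The fall was small and the libraries did not overlap. Gzmn, a granzyme gene of the same cluster and outside the list, had the largest fall among peaks with at least 50 normalized reads in the higher group: 6.78 and 5.12 in Ttad against 45.7 and 57.8 in Tterm (-2.92, SE 0.62, adjusted p = 0.00218). The 2 rises in the list were at Cx3cr1, the fractalkine receptor of cytotoxic effector cells, with 409 and 417 in Ttad and 269 and 255 in Tterm (0.66, SE 0.16, adjusted p = 0.0126), and 48721 bp from Xcl1, with 28.8 and 16.2 against 5.17 and 3.26. Xcl1 is a chemokine of progenitor exhausted cells. No granzyme gene of the list other than Gzmb had a called peak. Effector regulators had 5 lower and 0 higher calls of 177 peaks, 1 peak each at Klf6, Runx1, Runx2, Runx3 and Zeb2. That is 2.82% called, against 1.75% of all peaks. The Runx2 peak changed by -0.83 (SE 0.19, adjusted p = 0.0052), and Tbx21, Eomes and Stat4 had no called peak.

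Exhaustion regulators had 6 lower and 2 higher calls of 212 peaks (3.77% called, against 1.75% of all peaks), with a list median of -0.02. Prdm1, which encodes the repressor Blimp-1 of terminal cells, fell at 3 distal peaks, the largest change being 328 and 328 in Ttad against 523 and 509 in Tterm (log2 fold -0.65 ± 0.14 SE, adjusted p = 0.00186). Id2, the E protein inhibitor of effector cells, fell at 2 distal peaks by 0.80 and 0.45. Tox, the factor that installs the exhausted state, rose at 1 peak inside the gene, with 180 and 171 in Ttad against 109 and 81.4 in Tterm (0.89, SE 0.25, adjusted p = 0.0351). Nr4a1, an early response gene of receptor signalling, rose at its promoter from 1031 and 1031 to 1273 and 1289 (0.31, SE 0.08, adjusted p = 0.0247), while 1 distal peak assigned to Nr4a3 fell by 1.04. The called peaks of these regulators thus went both ways, with falls at Prdm1 and Id2 and rises at 1 Tox peak and the Nr4a1 promoter. After quantile normalization 1 peak of the list was called higher and 4 lower, so the rising side rests on few calls that depend on the scaling.

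Inhibitory receptors and terminal surface genes had 3 lower and 1 higher calls of 102 peaks (3.92% called, against 1.75% of all peaks). All 3 falls were at Entpd1, which encodes CD39, an enzyme of the terminal cell surface that degrades extracellular ATP. Its start-site peak (chr19:40659633-40662398) had 478 and 478 normalized reads in Ttad and 709 and 668 in Tterm (log2 fold -0.52 ± 0.12 SE, adjusted p = 0.00476). Tnfrsf9, the costimulatory receptor 4-1BB, rose at 1 peak, with 134 and 159 against 75.0 and 64.3 (1.06, SE 0.28, adjusted p = 0.0267). Pdcd1, Ctla4, Lag3, Tigit, Cd244a, Cd160, Cd38 and Cd101 had no called peak in this comparison. Genes of dysfunction, senescence and p38 signalling had 3 lower and 0 higher calls of 93: near Cdkn1a, the gene of the cell-cycle inhibitor p21, by 0.66, and at Mapk14, the p38 alpha kinase, by 0.53 and near Dusp5 by 0.39 on the log2 scale. Of 54 peaks at AP-1 genes 1 fell, at Mafk. The share called was 3.23% in the dysfunction, senescence and p38 list. In the AP-1 list it was 1.85%, near the 1.75% of all peaks.

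Of 102 peaks at T cell identity genes, 1 rose and 2 fell (2.94% called, against 1.75% of all peaks). The 2 falls were at Ptprc, which encodes CD45, the stronger with 602 and 598 in Ttad against 825 and 877 in Tterm (log2 fold -0.50 ± 0.10 SE, adjusted p = 0.000587). The rise was at a peak inside Thy1 (chr9:44046603-44047436), the gene of a surface glycoprotein of T cells, with 567 and 668 in Ttad and 135 and 125 in Tterm (2.23, SE 0.14, adjusted p = 5.46e-23), the smallest p of the comparison. This peak does not order the states as the progenitor loci do, since aged Zfp219 Ttran libraries had 3158 and 3153 and Tprog libraries 191 and 219, and aged OTC Ttad libraries 4884 and 4611. Its part in any state difference was not tested.

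By limma, 6.67% of NK cell marker peaks and 4.76% of stromal and endothelial ones were called, against 1.75% of all peaks. Each of these 2 shares rests on 1 peak. Of 12 B cell, 18 myeloid, 14 dendritic cell, 6 CD4 and regulatory T cell and 7 melanoma peaks, limma called 0, and edgeR called 1 myeloid peak. One of 15 NK cell peaks rose, near Klrb1c (92.4 and 106 in Ttad, 49.1 and 42.3 in Tterm), and 1 of 21 stromal and endothelial peaks fell, inside Pecam1 (72.9 and 55.4 against 163 and 151). By edgeR 3 of the 21 stromal and endothelial peaks fell, and the limma median of that list was -0.21. Summed normalized reads at the marker peaks were 5348 and 5218 in Ttad against 4975 and 4957 in Tterm for NK cells, 1103 and 1029 against 1183 and 1136 for B cells, 2758 and 2807 against 2807 and 2794 for myeloid cells, 1073 and 1093 against 913 and 1103 for melanoma, and 3733 and 3652 against 4365 and 3956 for stroma and endothelium. Their part in the results above was not tested.

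Called peaks gathered at 28 genes with 3 or more of them, 10 with all higher and 18 with all lower in Ttad, among them Tcf7, Id3, Ccr7 and Ccl3 described above. Fam53b, whose product is linked to Wnt signalling, rose at 5 of 15 peaks, the strongest call having 221 and 198 normalized reads in Ttad against 71.5 and 103 in Tterm (log2 fold 1.27 ± 0.20 SE, adjusted p = 2.54e-05). Ccr6, a chemokine receptor for CCL20, rose at 3 of 6 peaks. Its peak 961 bp from the gene (chr17:8233162-8235080) had 159 and 155 against 52.6 and 63.5 (1.43, SE 0.24, adjusted p = 5.03e-05), and its start-site peak had 95.0 and 92.1 against 35.3 and 41.5 (1.27, SE 0.33, adjusted p = 0.0197). Asap1, Arhgef3 and Lrig1, a regulator of growth factor receptors, rose at 3 peaks each. Falls gathered at Plcl1 and Dennd1b, with 4 called peaks each, and at Myo5a, Hsbp1l1, Stard13 and Rngtt with 3 each. All 3 peaks assigned to Hsbp1l1 fell.

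Among single peaks with at least 50 normalized reads in the higher group, the largest rises included Pter at 2.41, Thy1 at 2.23, Bbs9 at 2.12, Ston2 at 1.74, Arhgef3 at 1.72, Sgk3 at 1.71 and Cd247, the CD3 zeta chain of the T cell receptor, at 1.61 on the log2 scale. The Pter peak had 50.0 and 61.4 normalized reads in Ttad and 9.48 and 9.77 in Tterm, without overlap. The largest falls after Gzmn were at Stard13, by 2.06, Bnc1, by 1.84, Hmcn2, by 1.83, and near Lemd1, by 1.81. Sgk3 encodes a kinase of the phosphoinositide pathway, and its peak had 62.7 and 74.2 in Ttad and 21.5 and 18.7 in Tterm, where OTC libraries had 20.1 and 19.7 against 21.8 and 21.1. The difference between the 2 guides at this peak, 1.82 (SE 0.51), had an adjusted p of 0.219.

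Promoters were unevenly divided. A start site lay in 18.5% of all peaks, in 70 of the 341 higher peaks (20.5%) and in 22 of the 601 lower ones (3.66%). The higher promoters changed little: the median log2 fold change of called start-site peaks was 0.34 among the higher and -0.54 among the lower, and with a size of at least 0.5 required the shares were 6.01% and 2.82%. With no size required, the shares were 10.2% and 4.8% after quantile normalization. They were 19.6% and 3.7% after TMM rescaling, and 20.2% and 3.44% by edgeR. Over all peaks the median log2 fold change was 0.08 at start-site peaks and -0.02 elsewhere. The part of the scaling in the small promoter rises was not tested. The share of higher among called peaks in aged OTC and Dusp5 cells with a start site was 12.5% and 13.8%, and of lower 8.02% and 8.58%.

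Il2 was a promoter with a larger change. The start-site peak of this cytokine gene (chr3:37125704-37126777) had 69.5 and 81.0 normalized reads in Ttad and 47.4 and 17.1 in Tterm (log2 fold 1.36 ± 0.35 SE, adjusted p = 0.0191), and the Tterm libraries differed from each other by more than the Ttad libraries did. Aged OTC libraries had 60.4 and 65.3 in Ttad and 58.8 and 61.4 in Tterm, and the difference between guides, 1.30 (SE 0.49), had an adjusted p of 0.482. A rise of 1.15 at a peak 6288 bp from Axin2, a target of Wnt signalling (138 and 132 against 66.4 and 54.6, adjusted p = 0.00823), and one of 0.86 at the promoter of Il9r, the interleukin-9 receptor, were of like size. The peak near Axin2 holds the promoter of another gene, Gm46298, and not that of Axin2. That peak and the Il2 and Il9r promoters were singled out after their values were seen.

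Where the other sorted states of aged Zfp219 cells lie at the called peaks was not used to choose them. Tprog libraries lay beyond Ttad, further from Tterm, at 276 of the 341 higher peaks (80.9%) and at 425 of the 601 lower ones (70.7%). Over all peaks Tprog exceeded Ttad at 49.1%. The mean level on the log2(normalized reads + 1) scale at the higher peaks was 8.61 in Tprog, 8.12 in Ttad, 7.78 in Ttran and 7.19 in Tterm, and at the lower peaks 7.01, 7.17, 7.71 and 8.07. The Ttad and Tterm means there are set by the choice of peaks. In aged OTC cells, which had no part in the choice, the same peaks gave 8.67, 8.26, 8.03 and 7.58, and 7.09, 7.43, 8.02 and 8.14. At these peaks Ttad stood between Tprog and Tterm in both guides. At the 5 Tcf7 peaks each Tprog library exceeded both Ttad libraries, and at the Havcr2 start-site peak the Tprog libraries had 577 and 591 against 928 and 929 in Ttad.

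**Figure D3:**
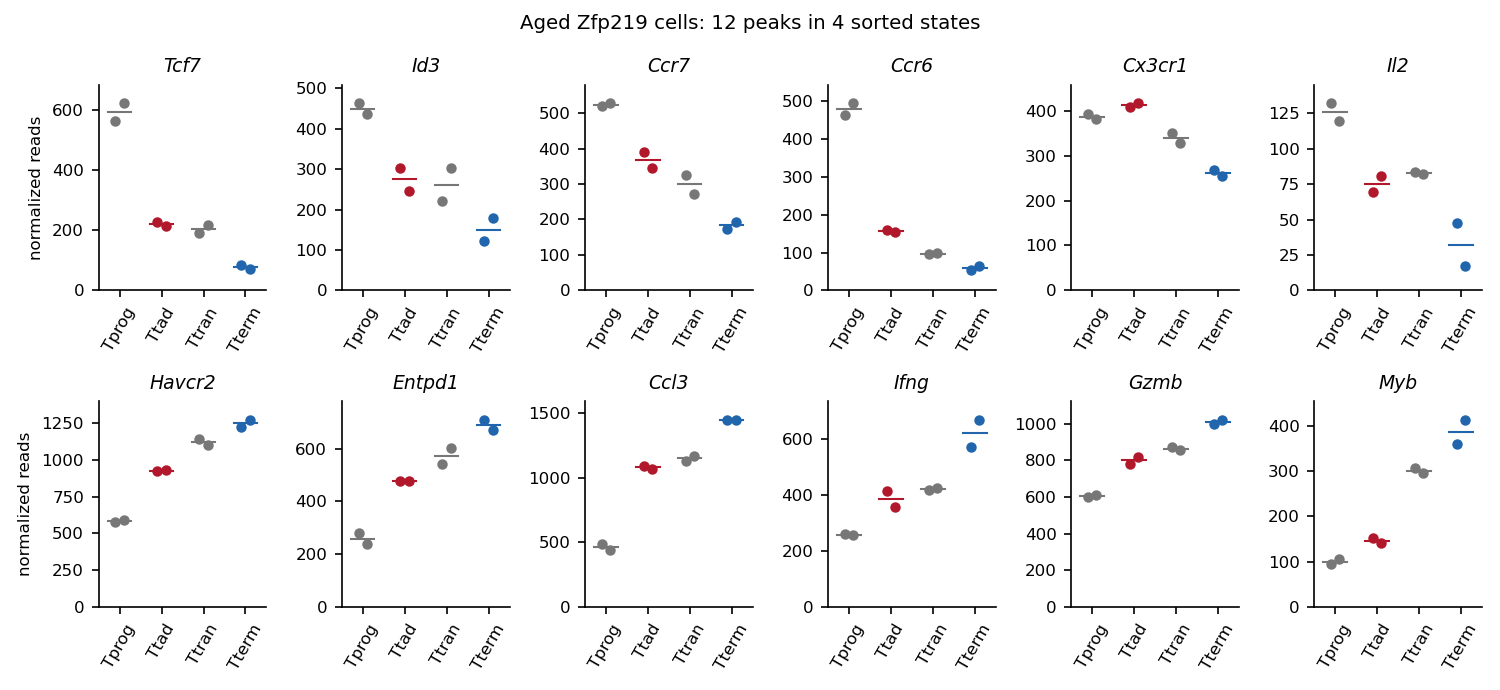
Normalized reads (y axes, from 0) at the peak with the smallest p of each of 12 genes in the 2 libraries of each aged Zfp219 state, with lines at the group means; Ttad is red and Tterm blue. At Tcf7, Id3, Ccr7 and Ccr6 the Tprog libraries are highest and Tterm lowest, at Cx3cr1 Ttad is as high as Tprog, and at Havcr2, Entpd1, Ccl3, Ifng, Gzmb and Myb Tprog is lowest and Tterm highest.

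Fewer peaks were called with the Zfp219 guide than with the other guides, at 942 against 3921 in OTC cells (7.28%) and 3955 in Dusp5 cells (7.34%). The order depends on the fit. With each guide's 4 libraries fitted alone the counts were 2791 in Zfp219, 2844 in OTC and 1310 in Dusp5 cells, while edgeR gave 1422, 3841 and 2846 and the thinned libraries 557, 2430 and 2049. Without Tterm library 2, the shallowest of all, the Dusp5 count was 1557. No library is shared between the 3 comparisons, so the size of the differences can be read at peaks called in another guide.

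At those peaks the Zfp219 differences had the same direction and a smaller size. At the 1627 peaks higher in OTC Ttad (3.02% of all) the median log2 fold change was 0.32 in Zfp219 cells, with 0.316 to 0.327 over the 4 pairs of a Ttad and a Tterm library, and 0.45 in Dusp5 cells, with 0.434 to 0.465. At the 2294 peaks lower in OTC Ttad (4.26%) the medians were -0.34 and -0.42. At the 1821 higher (3.38%) and 2134 lower (3.96%) Dusp5 peaks they were 0.25 and -0.34 in Zfp219 cells, against 0.38 and -0.44 in OTC cells. The ranges of the 2 guides did not overlap in any of the 4 sets, although pairs share libraries and peaks are not replicates, and no test across peaks was made. After thinning the Zfp219 medians were 0.34 and -0.37 against 0.50 and -0.45 in Dusp5 cells at OTC peaks, and 0.33 and -0.37 against 0.47 and -0.50 in OTC cells at Dusp5 peaks. Quantile and TMM scaling, edgeR and a pseudocount of 8 gave the same order in all 4 sets. Leaving out Dusp5 Tterm library 2 when choosing the peaks, run for the Dusp5 sets, gave it in both of them.

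**Figure D4:**
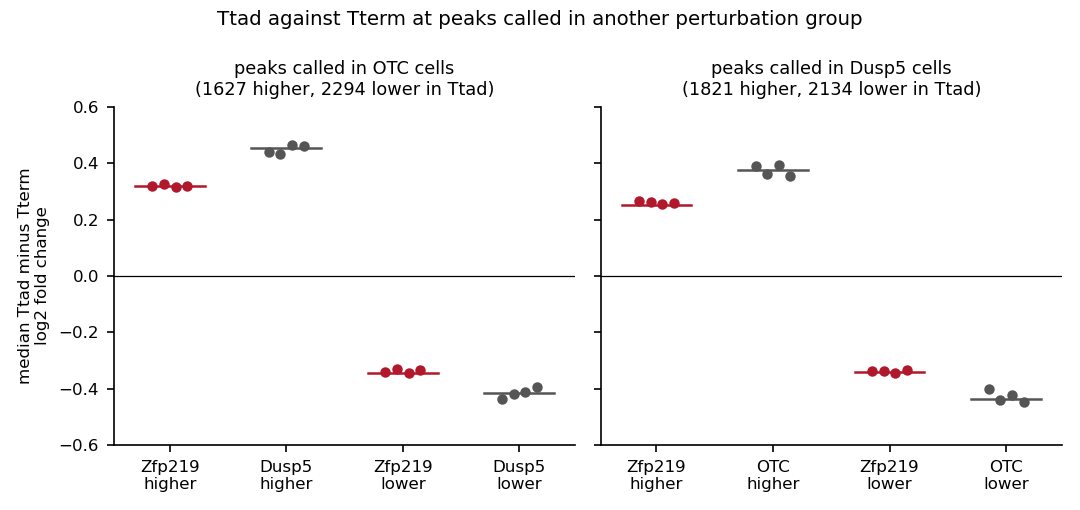
Median Ttad minus Tterm log2 fold change (y axis) at peaks called in aged OTC cells (left) or aged Dusp5 cells (right), measured in Zfp219 cells (red) and in the remaining guide (grey). Points are the 4 pairs of a Ttad and a Tterm library and lines the fitted medians; the Zfp219 medians, 0.25 to 0.32 at higher and -0.34 at lower peaks, are nearer to 0 in all 4 sets.

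In these sets the guides lay further apart in Ttad than in Tterm. At the 1627 OTC-higher peaks the mean log2 level was 7.12 in Zfp219 Ttad and 7.45 in Dusp5 Ttad, and 6.71 and 6.93 in the respective Tterm libraries. At the 1821 Dusp5-higher peaks it was 7.27 in Zfp219 Ttad and 7.45 in OTC Ttad, against 6.93 and 6.99 in Tterm. At the 2134 Dusp5-lower peaks Zfp219 Ttad stood at 7.31 and OTC Ttad at 7.21, with Tterm at 7.70 and 7.72. Of the peaks called in both OTC and Dusp5 cells, 127 of 523 higher ones (24.3%) and 277 of 831 lower ones (33.3%) were also called in Zfp219 cells. Of the Zfp219 calls themselves, 54.3% of the higher and 60.2% of the lower were called in the same direction in OTC cells, and 49.3% and 58.7% in Dusp5 cells. In Zfp219 cells alone 115 higher and 163 lower peaks were called, of which 0 and 0 differed from OTC, and 0 and 1 from Dusp5, by the test of the difference.

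The test of the difference itself found few peaks. Between the Zfp219 and OTC differences limma called 10 peaks, 4 higher (0.00743%) and 6 lower (0.0111%), together 0.0186% of peaks, with 3977 at an unadjusted p under 0.05, and edgeR 10; without OTC Ttad library 2 limma called 95 and without Zfp219 Tterm library 1 it called 3. Between the Zfp219 and Dusp5 differences limma called 10, 8 higher (0.0149%) and 2 lower (0.00371%), with 4212 at an unadjusted p under 0.05, edgeR 6, and limma 317 without Dusp5 Tterm library 1. Both tests use the same Zfp219 libraries. Against the mean of both guides, a reference chosen after seeing the data, limma called 4 peaks (0.00743%), 3 higher (0.00557%) and 1 lower (0.00186%), and edgeR 2. Of the 10 peaks that differed from OTC, 8 were not called in Zfp219 cells and 3 lie on unplaced scaffolds, where read placement is uncertain.

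At Zfp652 the start-site peak (chr11:95747975-95749126) had 283 and 240 normalized reads in Zfp219 Ttad and 324 and 383 in Zfp219 Tterm. Aged OTC libraries had 75.5 and 80.1 in Ttad and 292 and 275 in Tterm, and Dusp5 libraries 108 and 110 against 249 and 266. The difference of the differences against OTC was 1.42 (SE 0.25, adjusted p = 0.00119), and against Dusp5 0.79 (adjusted p = 0.265). At this locus, a zinc-finger repressor gene, the Ttad libraries lay below the Tterm libraries with each guide. The gap was smaller in Zfp219 cells, and of the contrasts with OTC and Dusp5 only that with OTC passed the test. Zfp219 Tprog libraries had 71.1 and 104.

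Cdyl, which encodes a chromodomain corepressor, also had a smaller gap between the states in Zfp219 cells, at a peak inside the gene (chr13:35814798-35817351). Zfp219 Ttad had 353 and 283 and Zfp219 Tterm 310 and 281, against 184 and 174 and then 356 and 323 in OTC cells, and 149 and 149 and then 301 and 382 in Dusp5 cells. The Zfp219 difference was 1.28 above that of Dusp5 (adjusted p = 0.000869) and 1.02 above that of OTC (adjusted p = 0.0528). Sec24c, a gene of vesicle coat assembly, was 1.50 above OTC (SE 0.26, adjusted p = 0.00119) at a peak with 297 and 265 in Zfp219 Ttad against 203 and 233 in Tterm, and 75.5 and 121 against 179 and 247 in OTC cells. Eif2ak4, the amino acid sensing kinase GCN2, was 1.28 above OTC (adjusted p = 0.0314) and Snx29 1.52 above. The largest fall against OTC was at a peak inside Abcg2, an efflux transporter, at -4.08 (SE 0.80, adjusted p = 0.0142), where OTC Tterm libraries had 0 and 3.67 normalized reads and the Zfp219 states did not differ. Against Dusp5 a peak assigned to Rnf24 was -1.37 (adjusted p = 0.0216), with 102 and 87.0 in Zfp219 Ttad and 233 and 258 in Tterm. The Thy1 peak was 1.61 above Dusp5 (adjusted p = 1.13e-07) and -0.18 from OTC (adjusted p = 0.918).

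At 6 progenitor and terminal peaks the Zfp219 difference did not pass the test against OTC or against Dusp5. At the Tcf7 peak with the smallest p the difference of the Zfp219 and OTC differences was 0.04 (SE 0.28), at the Id3 start site 0.37 (SE 0.26), at the strongest Ccr7 call 0.40 (SE 0.22), at the Havcr2 start site 0.11 (SE 0.12), at the Entpd1 start site 0.46 (SE 0.17) and at the Gzmb start site -0.02 (SE 0.13), with adjusted p from 0.441 to 0.991. Against Dusp5 the differences at the same peaks, in the same order, were 0.24 (SE 0.28), 0.15 (SE 0.26), -0.03 (SE 0.22), 0.16 (SE 0.12), 0.07 (SE 0.17) and -0.01 (SE 0.13), with adjusted p from 0.797 to 0.997. No peak of the 11 lists passed the test against OTC. These intervals leave room for differences between guides. Against OTC, those at the Id3, Ccr7 and Entpd1 peaks reach the size of the median called change. The tests therefore do not show that the guides act alike at these loci.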

How the data were processed

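ATAC-seq libraries of sorted T cells were deposited by the authors as 1 table of 53868 peaks in 48 libraries. Its values are a signal, the deposited read counts per peak divided by 1 factor per library, and every value was a whole multiple of its library's step (100% within a tolerance of 0.1 reads), so reads per peak were recovered. The submitters' processing notes name Bowtie2 2.2.9, Picard 2.8.0, SAMtools 1.3.1, MACS2 2.1.1, DESeq2 1.28.1 and mm10. Their roles, duplicate handling, the Tn5 insertion shift and whether peaks were called on pooled libraries are not given in the sources used here.

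Log2(normalized reads + 1) was fitted with limma 3.58.1 in R 4.3.3, with a mean for each of 21 groups of 2 or 3 libraries and trended variance. Adjusted p-values are Benjamini-Hochberg over all peaks, called under 0.05, and fold changes understate those of weak peaks. Differences between guides are contrasts in the same fit. Alternatives were edgeR 4.0.16 and DESeq2 1.42.0 on recovered reads, a pseudocount of 8, a filter that drops the 25% weakest peaks, quantile and TMM scaling, fits of fewer libraries, thinning to 5638413 reads, a replicate block and leaving out each library. The fit was tested on simulated data. In the Zfp219 libraries 3 reads equal 2.44 to 2.59 normalized reads.

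Peaks were assigned to the RefSeq GRCm38.p6 protein-coding gene they overlap, else the nearest within 100 kb (51109 peaks), which need not be the gene they regulate. Coordinates are as deposited. Named peaks were the 12 largest rises and 12 largest falls with at least 50 normalized reads in the higher group, the 8 genes with most called peaks each way, examples from each list, all peaks of Slamf6, Havcr2 and Zfp219, and the 5 largest guide differences against OTC each way. Peaks that differ from Dusp5 and called promoters were chosen after their values were seen. The comparison and the gene lists were chosen with earlier results of these data known. Whether replicate numbers pair Ttad with Tterm is not given, and the main fit was unpaired. The correlation over peaks of same-numbered deviations was 0.0065 in Zfp219 cells, which cannot show whether the pools shared mice. Some genes of the lists and of the named peaks are not reported here.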

Additional observations from a re-analysis of the deposited data

Results flagged for a closer look

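The Ttad against Tterm difference itself differed between guides at 10 peaks for Zfp219 against OTC and at 10 peaks for Zfp219 against Dusp5, by limma's interaction contrast with a Benjamini-Hochberg adjusted p under 0.05. Both contrasts use the same 4 Zfp219 libraries. At the Zfp652 start site the difference against OTC was 1.42 and at Sec24c 1.50, and at Cdyl the difference against Dusp5 was 1.28. At a chromosome 17 peak with no gene within 100 kb (13550716 to 13553143) the Zfp219 libraries had 1456 and 1357 normalized reads in Ttad and 1247 and 1213 in Tterm, OTC libraries 2644 and 2482 against 1216 and 1315, and Dusp5 libraries 3884 and 3996 against 5496 and 5671. That peak passed both contrasts, at -0.83 against OTC and 0.70 against Dusp5.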

How the results depend on the processing

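The Zfp219 count of 942 peaks became 2791 with its 4 libraries fitted alone, 1422 by edgeR, 1664 by DESeq2, 557 after thinning and 247 to 320 without 1 library. The count of peaks differing from OTC, 10, became 6 when the compared groups were fitted alone, 5 after thinning, 3 to 95 without 1 library (95 without OTC Ttad 2, 22 without OTC Tterm 2, 21 without OTC Ttad 1, 6 without Zfp219 Ttad 1 and 3 without Zfp219 Tterm 1) and 4 with the mean of OTC and Dusp5 as reference, an alternative chosen after seeing the data. The count differing from Dusp5, 10, became 5 after quantile scaling, 4 with the groups alone, 6 in the 24 aged libraries, 6 by edgeR and 7 to 317 without 1 library (317 without Dusp5 Tterm 1, 57 without Dusp5 Ttad 2 and 35 without Dusp5 Ttad 1). The OTC count of 3921 became 2430 after thinning and 1908 to 2813 without 1 library, and the Dusp5 count of 3955 became 1310 alone, 2049 after thinning and 1557 to 4115 without 1 library. A state left with 1 library was assumed to vary like the other groups. Thinning removes reads and leaving out a library removes samples; for the other settings the cause was not tested. With a replicate block the counts were 891 for Zfp219, 7 against OTC, 11 against Dusp5, 3839 for OTC and 3862 for Dusp5. Same-numbered Ttad and Tterm libraries did not deviate together (correlations 0.0065, 0.00022 and -0.0022). Of the 942 peaks, 90 stayed called without each library in turn and 82, of which 24 were higher, under every setting run. Of 200 called named peaks, 138 stayed called after quantile scaling and 103 after thinning.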

Other observations

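Some called promoters outside the lists were chosen here after their values were seen. The Hspa1a promoter, of an inducible chaperone, had 1144 and 1227 normalized reads in Ttad and 970 and 920 in Tterm (log2 fold change 0.33, SE 0.06, limma adjusted p = 0.000431), and the promoter of its cochaperone Dnajb1 rose by 0.27. The promoter of Trp53, the p53 gene, had 1557 and 1408 against 1175 and 1198 (0.32, adjusted p = 0.017). The promoter of Adgrg1, whose sequence holds the AP-1 string, had 342 and 315 against 491 and 502 (-0.60, SE 0.14, adjusted p = 0.00985). The Bcas3 peak, inside the gene, had 66.1 and 61.4 against 15.5 and 23.6 (1.68, adjusted p = 0.0274), with a log2 fold change of -0.07 in OTC cells and 0.06 in Dusp5 cells. The difference between the guides at Bcas3 missed the threshold, with an adjusted p of 0.445 against OTC and 0.45 against Dusp5.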
